A study of Mus musculus with 4 samples.

Results

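The transcripts of 10 secretory genes of the lung epithelium were followed in 4 mRNA libraries of CD11b+Ly6g+ cells sorted from mouse lung. The genes are 5 transcripts of club cells, Scgb1a1, Scgb3a1, Scgb3a2, Bpifa1 and Cyp2f2, and 5 of alveolar type 2 cells, Sftpc, Sftpa1, Sftpb, Sftpd and Lamp3. They were taken by name from the count table, in which all 10 of them are among 54532 genes. Each group was 1 library made from the pooled cells of 10 to 12 C57BL/6 mice of 6 to 8 weeks carrying the pre-metastatic niche (PMN) model. All mice, controls included, received 300 μl of medium conditioned by B16F10 melanoma cells (MCM) intraperitoneally for 10 days and, on day 7, an injection of 100000 B16F10 cells into the tail vein. The control group (Ctrl) was given no peptide. The other groups were injected subcutaneously with TP5, sFD17 or FR17 at 40 μM/kg each day from day 3, and lungs were digested with collagenase and DNase on day 10. TP5 is thymopentin, a free immunomodulatory pentapeptide. FR17 carries that pentapeptide on a peptide that assembles after cleavage by the protease MMP2, and sFD17 assembles likewise but carries the pentapeptide in scrambled order. The methods name CD11b and Ly6g as the sort markers and name no epithelial marker used for exclusion. A lung without the model was not among the 4 libraries.

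Club cells line the small airways, where they secrete secretoglobins into the lining fluid and detoxify inhaled compounds. Alveolar type 2 cells make surfactant, the film of lipid and protein that keeps alveoli open. Sftpc is restricted to alveolar type 2 cells, whereas Sftpa1, Sftpb and Sftpd are also made by club cells, and Lamp3 is also a marker of mature dendritic cells. Granulocytes, the cells that CD11b with Ly6g marks, are not known for making secretoglobins or surfactant proteins. The comparison asks whether club and alveolar type 2 transcripts stood in the same proportion in the 4 sorted pools, and their source was not tested.

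The sequences upstream of the genes were read from RefSeq on GRCm38.p6, where 6 of the 10 members matched. The windows of Cyp2f2 and Lamp3 did not hold the letters CTCAAG and are not shown. Those of the other genes, 2 club and 2 alveolar, held these letters and are shown. Each is given 5′ to 3′ on the strand of its gene and holds no base of the gene as the count table places it, for which the last 6 bases of the Sftpa1 window are not shown. Capitals mark matches on either strand to CTCAAG, bound by NKX2-1, to TGTTTNC, bound by FOXA factors, and to the TATA box TATAAA.
Bpifa1, chr2:154142630-154142879, plus strand: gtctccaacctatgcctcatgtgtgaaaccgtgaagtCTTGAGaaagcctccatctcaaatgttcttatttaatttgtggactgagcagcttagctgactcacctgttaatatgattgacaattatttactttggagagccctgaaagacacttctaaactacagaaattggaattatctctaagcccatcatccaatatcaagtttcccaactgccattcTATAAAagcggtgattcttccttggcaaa
Scgb3a1, chr11:49663345-49663594, plus strand: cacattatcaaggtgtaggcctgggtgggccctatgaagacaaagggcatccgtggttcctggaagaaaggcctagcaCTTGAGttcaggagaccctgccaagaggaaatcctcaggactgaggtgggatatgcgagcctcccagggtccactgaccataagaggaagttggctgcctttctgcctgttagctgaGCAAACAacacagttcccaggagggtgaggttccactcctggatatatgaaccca
Sftpb, chr6:72304360-72304609, plus strand: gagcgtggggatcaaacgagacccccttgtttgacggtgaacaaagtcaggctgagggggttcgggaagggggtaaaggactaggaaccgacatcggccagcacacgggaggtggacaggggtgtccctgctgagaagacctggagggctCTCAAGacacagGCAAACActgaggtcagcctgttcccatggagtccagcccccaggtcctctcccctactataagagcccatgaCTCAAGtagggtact
Sftpa1, chr14:41131538-41131781, plus strand: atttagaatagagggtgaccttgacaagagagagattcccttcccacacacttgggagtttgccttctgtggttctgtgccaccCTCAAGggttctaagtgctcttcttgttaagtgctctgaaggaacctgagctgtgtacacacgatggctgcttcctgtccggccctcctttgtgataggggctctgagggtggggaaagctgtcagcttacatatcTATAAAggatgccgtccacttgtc

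Motifs were searched in the whole 250 bases before each RefSeq start. The NKX2-1 letters stood in 4 of the 6 matched windows, once each in Bpifa1, Scgb3a1 and Sftpa1 and 2 times in Sftpb, where the nearer match began 15 bases before the RefSeq start. Of all 32851 windows of 250 bases, 13.3% held them. The FOXA letters stood in 3 of the 6, Scgb3a1, Sftpb and Lamp3, against 17.8% of all windows. The TATA letters began 29 bases before the RefSeq start of Bpifa1 and 30 bases before that of Sftpa1, and were in 12.4% of all windows. The letters TTGCNNAA, a motif of C/EBP factors, were in none of the 6 windows and in 9.56% of all windows. The window of Cyp2f2 held none of the motifs searched. The NKX2-1 letters were thus found upstream of some club and some alveolar genes, and these matches are a description of the sequence and not of binding. Scgb1a1, Scgb3a2, Sftpc and Sftpd had no window among the 6, and the matching left out chr18, which holds Scgb3a2.

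The libraries held 15543071 to 19638228 counts. Itgam, which encodes CD11b, was at 302 to 433 CPM and Ly6g at 73.1 to 111 CPM on the scale that corrects for library composition (TMM-scaled CPM, a gene's counts relative to the effective total of its library, named CPM from here on), so both sort markers were present in each library. Of the exon bases of Itgam, 3450 of 5024 are shared with the gene Gm49368. A list of 18 neutrophil genes held 823646 to 866605 counts a library. After the same scaling its sum was at 0.946, 1.32 and 0.740 times Ctrl in TP5, sFD17 and FR17. Whether the cells of a group came from separate sorts is not given, and there was no second library of any group, so no difference between groups has a replicate check. Ratios are given with exact 95% binomial intervals, which cover counting error only, and a gene is counted as apart when its fitted log2 difference reached 2-fold in either direction. In these bulk pools, fewer cells of a type and less RNA per cell cannot be told apart.

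All 10 members were detected in every library, and together they took 0.0728% of the counts in Ctrl, 0.119% in TP5, 0.134% in sFD17 and 0.103% in FR17. Club members supplied 11332 counts in Ctrl, 19167 in TP5, 19732 in sFD17 and 18274 in FR17. Alveolar type 2 members supplied 1140, 1186, 1052 and 1982 counts in the same order. Club transcripts thus outnumbered alveolar ones in all 4 libraries. The most club counts were in sFD17 and the most alveolar counts in FR17. By CPM the alveolar sum was 67.5, 67.6, 79.7 and 86.3 in Ctrl, TP5, sFD17 and FR17. On that scale sFD17, the lowest by alveolar counts, came next after FR17.

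**Figure D1:**
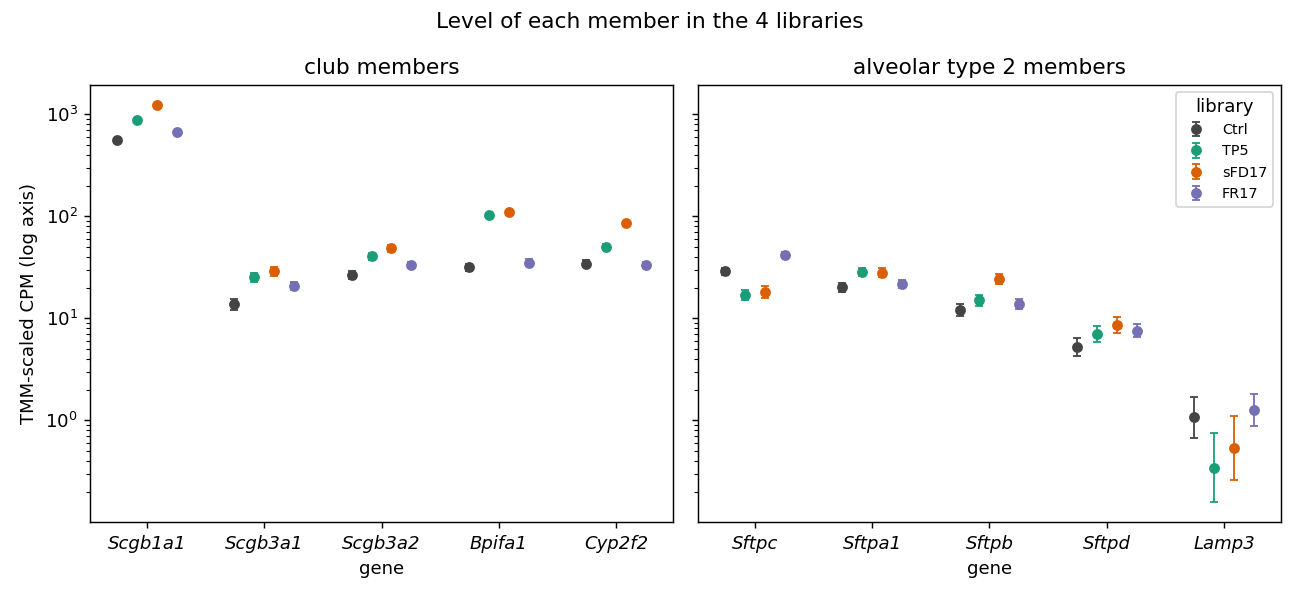
TMM-scaled CPM (log axis) of each member in the Ctrl, TP5, sFD17 and FR17 libraries, club members on the left and alveolar type 2 members on the right. Points are single libraries and bars are 95% intervals for counting error. Scgb1a1 lies above all other members in every library, and Sftpc, with 17.0 CPM in TP5 and 42.3 CPM in FR17, and Lamp3 have their low values in TP5 and sFD17, where the club members have their high ones.

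Scgb1a1, which encodes the club cell secretory protein, is at chr19:9083636-9087958 on the minus strand (GRCm38). It had 9541 counts in Ctrl, 15350 in TP5, 16131 in sFD17 and 15455 in FR17, or 565, 875, 1222 and 673 CPM. By counts it ranked 284th, 158th, 141st and 180th among all genes of the 4 libraries in that order. Ctrl was the lowest and sFD17 the highest library for this transcript. Relative to Ctrl, Scgb1a1 was 1.55 times as high for TP5 (95% interval 1.51 to 1.59), 2.16 times for sFD17 (2.11 to 2.22) and 1.19 times for FR17 (1.16 to 1.22). It made up 80.1 to 84.6% of the club counts in each library.

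Scgb3a1 and Scgb3a2 encode the other secreted secretoglobins of the airway. Scgb3a1, at chr11:49663610-49665118 on the plus strand, had 232, 442, 380 and 479 counts in Ctrl, TP5, sFD17 and FR17, or 13.7, 25.2, 28.8 and 20.9 CPM. It was 1.83 times as high as Ctrl for TP5 (1.56 to 2.16), 2.10 times for sFD17 (1.78 to 2.48) and 1.52 times for FR17 (1.3 to 1.78). Scgb3a2, at chr18:43764289-43767399 on the plus strand, had 446, 709, 642 and 766 counts, or 26.4, 40.4, 48.6 and 33.4 CPM. Its ratios to Ctrl were 1.53 (1.36 to 1.73), 1.84 (1.63 to 2.08) and 1.26 (1.12 to 1.42). By CPM both genes had the order of Scgb1a1, with Ctrl lowest, then FR17, TP5 and sFD17. With library size alone Ctrl was still the lowest, but the log2 differences from it were 0.92, 0.85 and 0.84 in TP5, sFD17 and FR17 for Scgb3a1 and 0.66, 0.66 and 0.58 for Scgb3a2, so the order of the peptide libraries in these genes rests on the scaling. Within a library, Scgb3a2 kept a narrow range relative to Scgb1a1, at 0.0467 of its counts in Ctrl, 0.0462 in TP5, 0.0398 in sFD17 and 0.0496 in FR17. Scgb3a1 was at 0.0243, 0.0288, 0.0236 and 0.0310 of the Scgb1a1 counts.

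Bpifa1, a secreted antimicrobial and surface-active protein of the airway lining, departed from the secretoglobins. It is at chr2:154142880-154149219 on the plus strand and had 535 counts in Ctrl, 1790 in TP5, 1448 in sFD17 and 809 in FR17, or 31.7, 102, 110 and 35.2 CPM. TP5 and sFD17 lay together well above Ctrl and FR17. The ratio to Ctrl was 3.22 for TP5 (2.92 to 3.56), 3.46 for sFD17 (3.13 to 3.83) and 1.11 for FR17 (0.996 to 1.24). Relative to Scgb1a1 it had 0.0561 of the counts in Ctrl, 0.117 in TP5, 0.0898 in sFD17 and 0.0523 in FR17. Hence the makeup of the club transcripts also differed between the libraries.

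Cyp2f2 encodes a cytochrome P450 of club cells that oxidises naphthalene, and is at chr7:27119909-27133660 on the plus strand. It had 578, 876, 1131 and 765 counts in Ctrl, TP5, sFD17 and FR17, or 34.2, 49.9, 85.7 and 33.3 CPM. The sFD17 library stood alone at the top. The ratio to Ctrl was 1.46 for TP5 (1.31 to 1.62), 2.50 for sFD17 (2.26 to 2.77) and 0.974 for FR17 (0.873 to 1.09), and with library size alone the log2 difference of FR17 from Ctrl was 0.21 in place of -0.04. Of the exon bases of Cyp2f2, 274 of 2025 overlap the antisense gene Gm15883, whose reads cannot be told apart unless the counting used strand, which is not given.

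Among the alveolar members, Sftpc, the hydrophobic surfactant protein specific to alveolar type 2 cells, ran the other way in TP5 and sFD17. It is at chr14:70520949-70524081 on the minus strand and had 487 counts in Ctrl, 299 in TP5, 239 in sFD17 and 970 in FR17, or 28.8, 17.0, 18.1 and 42.3 CPM. FR17 was the highest library and TP5 and sFD17 were close to each other at the bottom. The ratio to Ctrl was 0.591 for TP5 (0.510 to 0.684), 0.628 for sFD17 (0.536 to 0.735) and 1.47 for FR17 (1.31 to 1.64). Sftpc made up 42.7% of the alveolar counts in Ctrl, 25.2% in TP5, 22.7% in sFD17 and 48.9% in FR17.

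Sftpa1 and Sftpd encode the collectins of surfactant, which bind microbes, and Sftpb encodes its other hydrophobic protein, needed for the surface film. Sftpa1, at chr14:41131782-41136452 on the plus strand, had 341 counts in Ctrl, 495 in TP5, 371 in sFD17 and 494 in FR17, or 20.2, 28.2, 28.1 and 21.5 CPM. Sftpb, at chr6:72304610-72314371 on the plus strand, had 205, 263, 322 and 316 counts, or 12.1, 15.0, 24.4 and 13.8 CPM. Sftpd, at chr14:41172214-41185149 on the minus strand, had 89, 123, 113 and 173 counts, or 5.27, 7.01, 8.56 and 7.54 CPM. In none of the 3 did TP5 or sFD17 lie below Ctrl, in contrast to Sftpc. The ratios of sFD17 to Ctrl were 1.39 for Sftpa1 (1.20 to 1.62), 2.01 for Sftpb (1.68 to 2.41) and 1.63 for Sftpd (1.22 to 2.17). Those of TP5 to Ctrl were 1.40 (1.22 to 1.61), 1.24 (1.03 to 1.49) and 1.33 (1.00 to 1.77), and those of FR17 to Ctrl 1.07 (0.927 to 1.23), 1.13 (0.948 to 1.36) and 1.43 (1.10 to 1.87).

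Lamp3, a lysosomal membrane protein of the lamellar bodies of alveolar type 2 cells and of mature dendritic cells, is at chr16:19653378-19706375 on the minus strand and was the rarest member. It had 18 counts in Ctrl, 6 in TP5, 7 in sFD17 and 29 in FR17, or 1.07, 0.342, 0.530 and 1.26 CPM. As for Sftpc, TP5 and sFD17 were the low libraries. The ratio to Ctrl was 0.321 for TP5 (0.104 to 0.844), 0.498 for sFD17 (0.176 to 1.25) and 1.19 for FR17 (0.636 to 2.27), so the counts set wide limits. Of 12 genes of mature dendritic cells, 10 of the 11 tested were higher in TP5 than in Ctrl, 7 in sFD17 and 10 in FR17, with summed ratios of 1.49, 1.05 and 1.17. The share of all genes higher than Ctrl was not computed, and their median log2 difference was 0.00, -0.03 and 0.02 in TP5, sFD17 and FR17. The chemokine gene Ccl22 of that list had 777 counts in Ctrl, 1541 in TP5, 656 in sFD17 and 1558 in FR17. What part mature dendritic cells had in the Lamp3 counts was not tested.

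**Figure D2:**
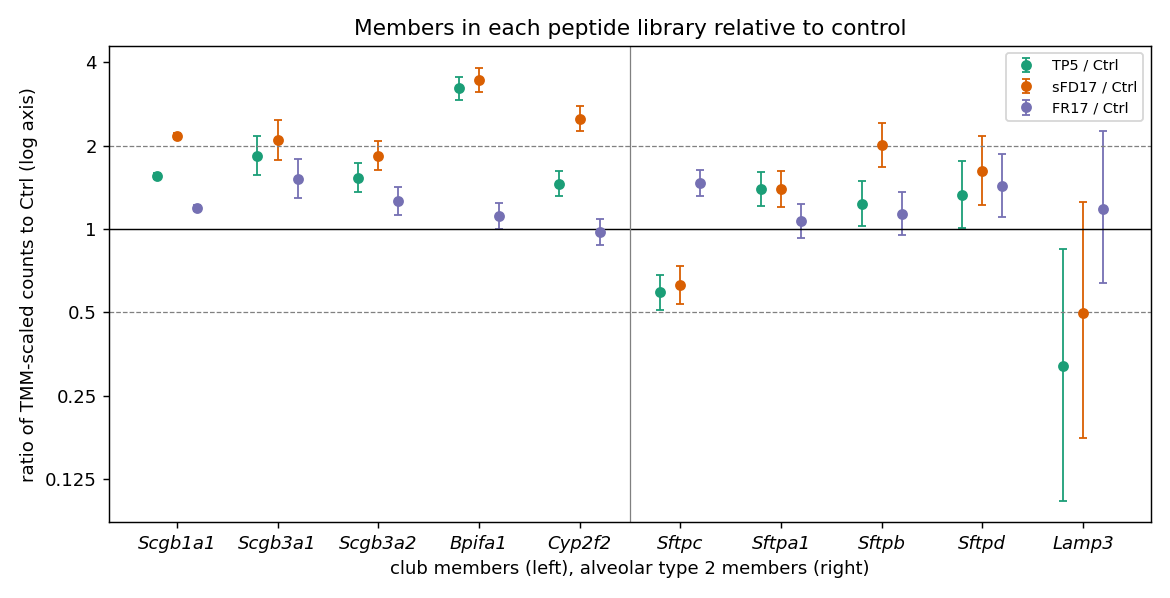
Ratio of TMM-scaled counts of each member in TP5, sFD17 and FR17 to Ctrl (log axis). Points are single libraries, bars are exact 95% intervals for counting error, the solid line marks equality and the dashed lines mark 2-fold. All 5 club members lie above Ctrl in TP5 and sFD17, while Sftpc, at 0.591 and 0.628, and Lamp3, at 0.321 and 0.498, lie below it.

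Across genes of different length the levels were ordered by RPKM, the CPM per kilobase of gene length without the composition factor. Scgb1a1 was first in all 4 libraries, at 1170 RPKM in Ctrl, 1879 in TP5, 2180 in sFD17 and 1653 in FR17. In Ctrl the RPKM of Scgb3a2 (29.6), Sftpc (27.5), Scgb3a1 (22.6), Bpifa1 (20.2) and Cyp2f2 (16.7) followed, then Sftpa1 (6.96), Sftpb (6.08), Sftpd (2.15) and Lamp3 (0.313). In TP5 and sFD17 Bpifa1 was the next after Scgb1a1, at 67.5 and 60.3 RPKM, whereas in FR17 Sftpc was, at 47.8 RPKM. Sftpc had 16.8 RPKM in TP5 and 14.9 in sFD17. With no second library, which neighbours in this order differ beyond the spread between libraries could not be tested.

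Against Ctrl, 2 members were at least 2-fold apart in TP5, Bpifa1 higher and Lamp3 lower, where 8.18% of the 16369 genes tested were apart. In sFD17 5 members were at least 2-fold higher, Scgb1a1, Scgb3a1, Bpifa1, Cyp2f2 and, at a log2 difference of 1.00, Sftpb, and 11.8% of all genes were apart. When only library size was used for scaling, 3 members were apart in sFD17, Bpifa1 and Cyp2f2 higher and Lamp3 lower, and 12.9% of all genes were. In FR17 no member reached 2-fold and 7.50% of all genes did. The median log2 difference of the club members was 0.63 for TP5, 1.11 for sFD17 and 0.25 for FR17, and that of the alveolar members 0.30, 0.48 and 0.22, beside 0.00, -0.03 and 0.02 for all genes tested. Club members were higher than Ctrl in 5 of 5, 5 of 5 and 4 of 5 cases, and alveolar members in 3 of 5, 3 of 5 and 5 of 5. The 3 comparisons share the Ctrl library.

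The peptides were also set against each other at their common dose and day, in 3 pairs, each 1 library against 1 and so with no replicated test. Between FR17 and sFD17, which differ in the order of the pentapeptide residues, 4 members were at least 2-fold apart and 22.1% of all genes were. Bpifa1 was at 0.321 of the sFD17 level in FR17 (0.294 to 0.350) and Cyp2f2 at 0.389 (0.354 to 0.427), while Sftpc was 2.33 times as high (2.02 to 2.70) and Lamp3 2.38 times (1.02 to 6.44). Scgb1a1 was at 0.551 of its sFD17 level (0.539 to 0.563). Sftpb was at 0.564 (0.482 to 0.661), close to Scgb1a1, and Sftpa1 at 0.766 (0.668 to 0.878) and Sftpd at 0.880 (0.690 to 1.13). The 5 club members and these 3 alveolar members were thus lower in FR17, and Sftpc and Lamp3 higher. With library size alone the log2 difference of Cyp2f2 was -0.90, short of 2-fold, and those of Sftpa1 and Sftpd turned to 0.08 and 0.27.

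Between FR17 and free TP5, 3 members were at least 2-fold apart against 9.92% of all genes. Bpifa1 was at 0.345 of the TP5 level (0.317 to 0.375), Sftpc at 2.48 times (2.18 to 2.83) and Lamp3 at 3.69 times (1.51 to 10.9). Between sFD17 and TP5 no member reached 2-fold, where 12.4% of all genes did. The widest ratios of that pair with intervals off 1 were those of Cyp2f2, 1.72 (1.57 to 1.88), and Sftpb, 1.63 (1.38 to 1.92). Bpifa1, at 1.08, and Sftpc, at 1.06 (0.892 to 1.26), were close in the free and the scrambled peptide libraries, and both turned below 1 with library size alone, at log2 differences of -0.16 and -0.18.

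Ratios within a library do not depend on the scaling between libraries. The club members had 9.94 times the counts of the alveolar members in Ctrl (9.35 to 10.6), 16.2 times in TP5 (15.2 to 17.2), 18.8 times in sFD17 (17.6 to 20.0) and 9.22 times in FR17 (8.80 to 9.66). TP5 and sFD17 lay apart from Ctrl and FR17 beyond counting error. Summed per kilobase of gene length, the ratios were 29.3, 54.6, 64.1 and 25.9, and without Scgb1a1 and Sftpc, the most abundant gene of each set over the 4 libraries together, they were 2.74, 4.30, 4.43 and 2.79. Without Sftpb and Sftpd they were 13.4, 24.0, 32.0 and 12.2, and in each of these sums sFD17 came first and TP5 next, with Ctrl and FR17 below both.

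The leading pair, Scgb1a1 to Sftpc, stood at 19.6 in Ctrl, 51.3 in TP5, 67.5 in sFD17 and 15.9 in FR17. Scgb1a1 to Sftpa1 was at 28.0, 31.0, 43.5 and 31.3, a narrower range. Sftpc had 0.767 of the summed counts of Sftpa1, Sftpb and Sftpd in Ctrl (0.680 to 0.864), 0.339 in TP5 (0.297 to 0.387), 0.297 in sFD17 (0.256 to 0.343) and 0.987 in FR17 (0.902 to 1.08). Thus the alveolar members did not keep a single proportion across the libraries. Sftpb to Sftpa1 was at 0.601, 0.531, 0.868 and 0.640, and Sftpd to Sftpa1 at 0.261, 0.248, 0.305 and 0.350.

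**Figure D3:**
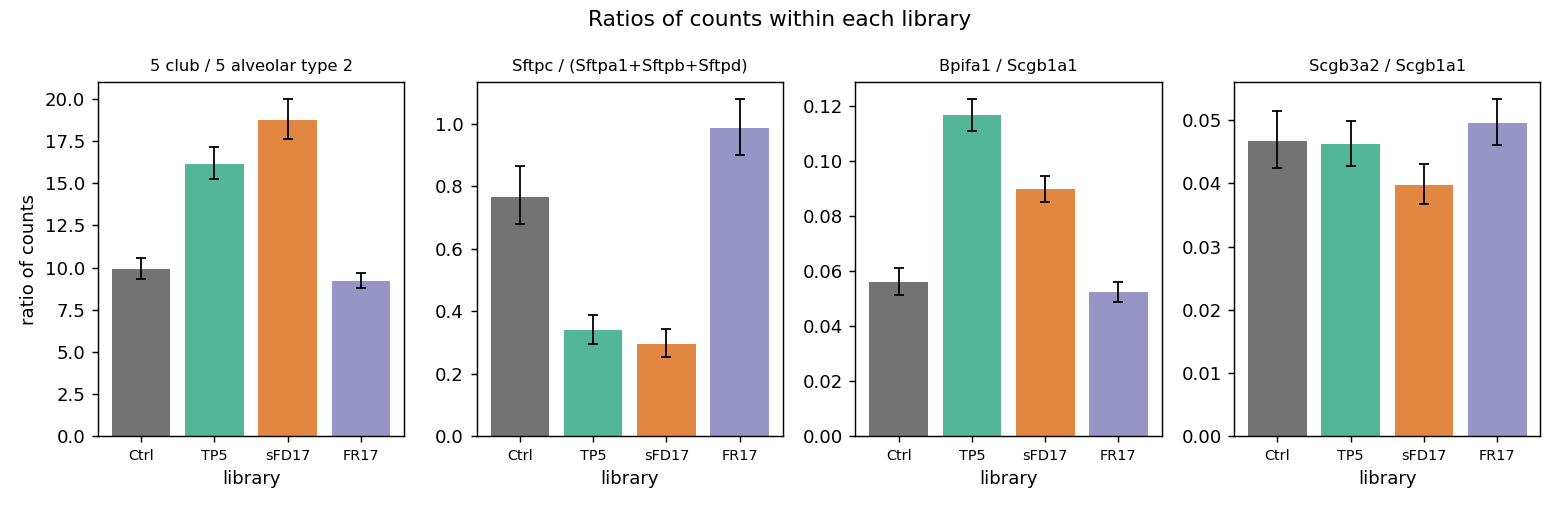
Ratios of counts within each library for the 5 club to the 5 alveolar type 2 members, Sftpc to the sum of the other 3 surfactant proteins, Bpifa1 to Scgb1a1 and Scgb3a2 to Scgb1a1. Bars are single libraries, each panel has its own axis from 0, and error bars are exact 95% intervals for counting error. The first panel stands at 16.2 and 18.8 in TP5 and sFD17 against 9.94 and 9.22 in Ctrl and FR17, while Scgb3a2 to Scgb1a1 stays between 0.0398 and 0.0496.

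As sums, the club members were at 1.63 times their Ctrl level for TP5 (1.59 to 1.67), 2.23 times for sFD17 (2.18 to 2.28) and 1.19 times for FR17 (1.16 to 1.21). Their alveolar counterparts summed to 1.00 times Ctrl for TP5 (0.923 to 1.09), 1.18 times for sFD17 (1.09 to 1.29) and 1.28 times for FR17 (1.19 to 1.38). The alveolar sum joined opposite differences, since without Sftpc it was at 1.31, 1.59 and 1.14 times Ctrl. Without Sftpb and Sftpd, which club cells also make, its log2 ratio was -0.14, -0.10 and 0.38, in place of 0.00, 0.24 and 0.36.

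A list of 20 other genes of club and airway secretory cells was read beside the members, of which 18 were tested and 1, Upk3a, had no count in any library. At least 2-fold higher than Ctrl were 4 of them for TP5, 10 for sFD17 and 1 for FR17, and 1 was lower in FR17, where 3.20%, 5.32% and 3.92% of all genes tested were higher and, in FR17, 3.58% lower. Their median log2 differences were 0.75, 1.05 and 0.23. The summed ratio to Ctrl was 1.00, 1.20 and 1.21, and 1.59, 1.73 and 1.23 without Cbr2, a carbonyl reductase and the most abundant gene of the list. Clca1, a secreted protein of mucous cells, had 187, 607, 294 and 375 counts in Ctrl, TP5, sFD17 and FR17, and Aldh1a7, an aldehyde dehydrogenase, had 28, 73, 97 and 75. Cbr2, with 3032, 2178, 2192 and 4941 counts, and Selenbp1, with 488, 359, 384 and 801, were, like Sftpc, lower in TP5 than in Ctrl and highest in FR17.

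Of 14 other alveolar type 2 genes, 11 were tested, and their sum stood at 1.07 times Ctrl for TP5, 1.67 for sFD17 and 0.865 for FR17. Without Chil1, a chitinase-like gene that neutrophils also express, the ratios were 1.34, 1.29 and 1.08. Napsa, an aspartic protease that processes surfactant protein B, had 1869, 2891, 2183 and 2734 counts, and Abca3, the lipid transporter of lamellar bodies, had 732, 961, 716 and 1101. These were the next most abundant genes of the list. Both had more counts than Sftpc (487, 299, 239 and 970) in every library, and what cells they came from was not tested. The phosphate transporter gene Slc34a2 had 60, 29, 40 and 56 counts and a ratio to Ctrl of 0.465 in TP5. Nkx2-1, the factor whose letters were searched upstream of the members, had 15 to 23 counts.

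Marker lists of some other lung and blood cells were, like Sftpc and Lamp3, lower in TP5 and sFD17 and higher in FR17 than in Ctrl. The counts of genes higher than Ctrl stand beside median log2 differences of all genes tested of 0.00, -0.03 and 0.02. Of 6 tested red blood cell genes, 0 were higher than Ctrl for TP5, 1 for sFD17 and 5 for FR17, with summed ratios of 0.462, 0.617 and 1.57 and 188 to 839 counts a library. Of 14 endothelial genes 1, 5 and 12 were higher, with summed ratios of 0.621, 0.841 and 1.24 and 2483 to 6480 counts. Of 16 genes of surfactant uptake and alveolar macrophages 2, 2 and 14 were higher, with summed ratios of 0.891, 0.587 and 1.18 and 47204 to 164775 counts, but with a ratio of 0.955 in FR17 without its most abundant gene, Chil3. The alveolar macrophage gene Ear1 had 407, 202, 23 and 827 counts in Ctrl, TP5, sFD17 and FR17, with ratios to Ctrl of 0.478, 0.0723 and 1.5. The part of these cells in the Sftpc values was not tested, and the club members had another order.

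**Figure D4:**
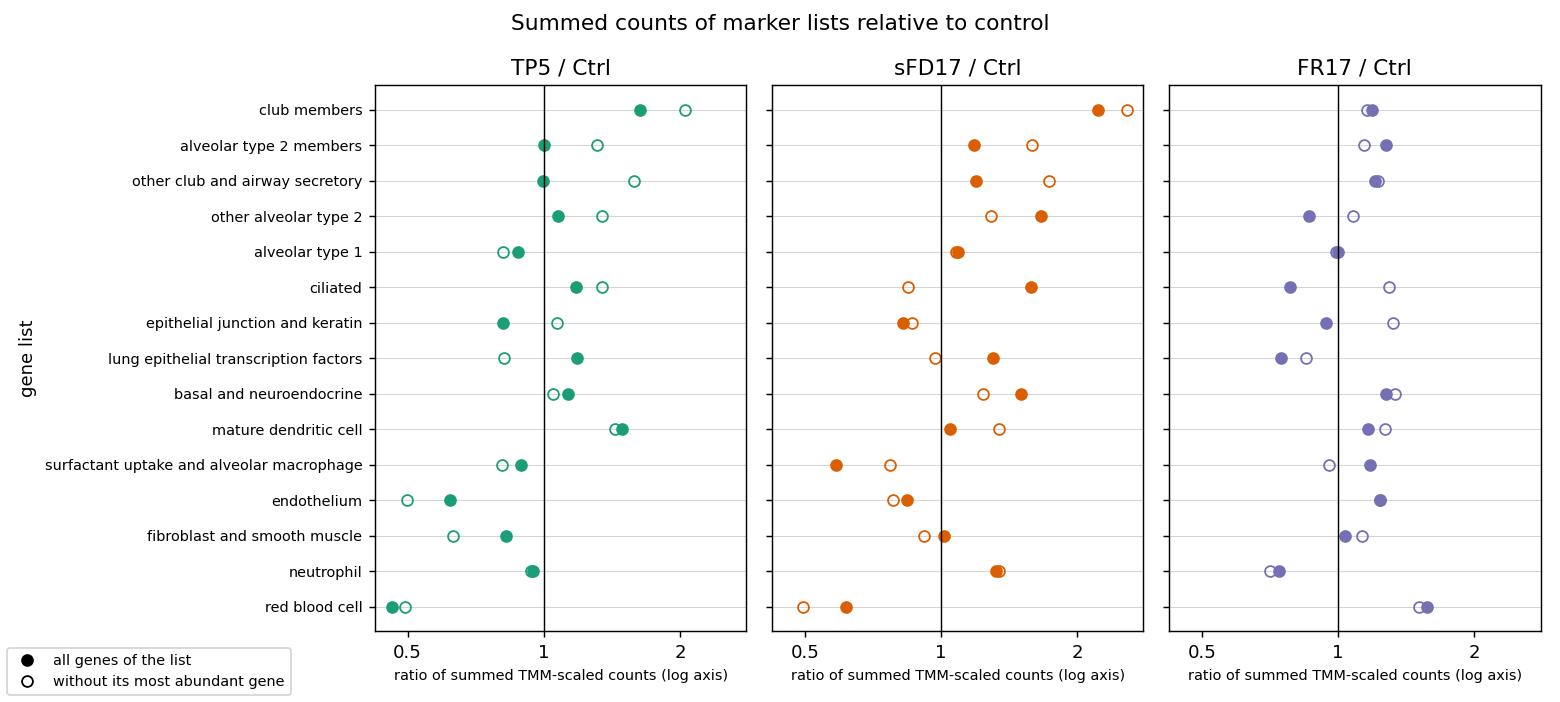
Summed TMM-scaled counts of each gene list in TP5, sFD17 and FR17 relative to Ctrl (log axis), with filled points for all genes of a list and open points without its most abundant gene. Each point is 1 library against 1. The club members stand at 1.63, 2.23 and 1.19, the alveolar type 2 members at 1.00, 1.18 and 1.28, and the red blood cell list at 0.462, 0.617 and 1.57.

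Among 11980 genes with at least 50 counts in a library, those whose 3 log2 ratios to Ctrl lay nearest to the club sum were Wfdc2, Ptgir, Itpr1, Bahcc1 and Syne1. Wfdc2, a secreted protease inhibitor-like protein of airway epithelium, had 169 counts in Ctrl, 283 in TP5, 295 in sFD17 and 276 in FR17. Its Euclidean distance from the club sum was 0.026 in log2 units. The next, Ptgir, the prostacyclin receptor gene, was at 0.137. Nearest to the alveolar sum were Ppm1k, Zkscan14, Ttc28, Gm15446 and Tbc1d22b, at distances of 0.054 to 0.097. Ppm1k, a mitochondrial protein phosphatase gene, had 122, 130, 110 and 216 counts. Likeness over 3 ratios that share 1 control library is a description of these libraries.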

How the data were processed

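Lung CD11b+Ly6g+ cells of 4 groups were sequenced as 1 pooled library each. The deposited table holds the authors' raw counts of reads for every gene, not normalized, after TRIzol extraction and the NEBNext Ultra Directional kit. The submitters' processing notes name HISAT2 2.0.5, StringTie 1.3.3b, featureCounts 1.5.0-p3, edgeR 3.18.1 and GRCm38.p6, with no role given. The strand setting is not given in the sources used here, so reads of antisense genes may be shared. Coordinates of 53548 of the 54532 genes equal those of GENCODE M21.

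From the counts, R 4.3.3 and edgeR 4.0.16 gave TMM factors from 0.849 to 1.17 and log2 CPM differences, prior count 2, over the 16369 genes that reached 10 counts in any library. A ratio of counts has an exact conditional 95% binomial interval, and a gene at least 2-fold apart was counted. The members and the 13 other lists, of 179 symbols with 1 not in the table, were chosen with earlier results of these data known. Named genes are the members, the 3 most abundant genes of each list and the 3 most different with at least 50 counts in a library, of which some are not reported here, and the 5 nearest in pattern. Alternatives were DESeq2 1.42.0 size factors, library size alone, other filters and folds, a prior count of 0.5, edgeR's exact test with a trended dispersion over the 4 libraries, gene length and sums without named genes. The fit was tested on simulated data.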

Additional observations from a re-analysis of the deposited data

How the results depend on the processing

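Of 100 values recomputed under the alternatives, 61 stayed within the counting interval or, for a count, within 1.5 times, 38 moved by more and 1 reversed. The log2 ratio of the club sum to Ctrl (0.70 in TP5, 1.16 in sFD17 and 0.25 in FR17) was 0.76, 0.94 and 0.49 with library size alone and 1.04, 1.36 and 0.21 without Scgb1a1. It was 1.20 in sFD17 with DESeq2 size factors, and 1.12 in sFD17 and 0.32 in FR17 with no filter. The alveolar sum (0.00, 0.24 and 0.36) was 0.39, 0.67 and 0.19 without Sftpc. Library size alone gave 0.025 in sFD17 and 0.60 in FR17. Without Sftpb and Sftpd the alveolar sum was -0.14 in TP5 and reversed to -0.10 in sFD17. Sftpa1, at 1.39 times Ctrl in sFD17, was still in that sum, beside Sftpc and Lamp3, which were below Ctrl. The club to alveolar ratio in Ctrl, TP5, sFD17 and FR17 was 29.3, 54.6, 64.1 and 25.9 per kilobase, 2.74, 4.30, 4.43 and 2.79 without the top gene of each set, and 13.4, 24.0, 32.0 and 12.2 without Sftpb and Sftpd.

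Of members 2-fold apart, the 2 in TP5 against Ctrl were 1 with at least 10 counts in every library, where Lamp3 is left out (3.74% of all genes), 1 by edgeR's exact test at an unadjusted p under 0.05 (1.98% of all genes), 0 after Benjamini-Hochberg adjustment (0.0305%) and 0 at 4-fold (0.819%). The 5 in sFD17 were 3 with library size alone (Bpifa1 and Cyp2f2 higher, Lamp3 lower), 1 after adjustment (Bpifa1; 0.977% of all genes) and 0 at 4-fold (2.06%). The 4 in FR17 against sFD17 were 3 with library size alone (without Cyp2f2; 30.5%), 1 after adjustment (Bpifa1; 2.26%) and 0 at 4-fold (3.78%), and the 3 in FR17 against TP5 were 0 after adjustment (0.0916%) and at 4-fold (1.14%). With library size alone the median log2 difference of all genes from Ctrl was 0.05, -0.23 and 0.26 in TP5, sFD17 and FR17, against 0.00, -0.03 and 0.02. Of 30 directions of members against Ctrl, 1 turned under another scaling or filter, that of Cyp2f2 in FR17. Of 30 between peptides 7 turned: Sftpa1 and Sftpd in FR17 against sFD17, Sftpb in FR17 against TP5, and Scgb3a1, Bpifa1, Sftpc and Sftpa1 in sFD17 against TP5. No paired analysis was possible because each group has 1 library. The groups were 1 library each, so no value separates treatment from pool, sort or library, and Lamp3, at 6 to 29 counts, is limited by depth.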

Other observations

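Lists of other epithelial cells did not share 1 order of libraries with the club members. For counts of genes higher than Ctrl, here and in the next paragraph, the median log2 difference of all genes tested was 0.00, -0.03 and 0.02. The 12 alveolar type 1 genes stood in sum at 0.879 times Ctrl for TP5, 1.09 for sFD17 and 0.998 for FR17, and Ager, their receptor for glycated proteins, had 286, 254, 222 and 285 counts in Ctrl, TP5, sFD17 and FR17. The 16 ciliated cell genes, 12 tested, stood at 1.18, 1.58 and 0.783, or 1.34, 0.846 and 1.3 without Cfap43, and 12, 9 and 9 of the 12 were higher than Ctrl. In Ctrl Cfap43 had 5754 of the 7017 counts of this list and Tppp3 had 1107, while the next most abundant gene, Rsph1, had 35. Both sums thus rest mainly on these top genes. Of 16 epithelial junction and keratin genes, 14 were tested, and 10, 9 and 9 of them were higher than Ctrl in the TP5, sFD17 and FR17 libraries. Krt19, a keratin of that list, had 692, 458, 110 and 1541 counts, and Epcam, an epithelial adhesion molecule, had 102, 137, 45 and 188, so sFD17, the highest library for Scgb1a1, was the lowest for both. Other genes of the list were above Ctrl in sFD17, with ratios of 1.73 for Sfn, 1.67 for Krt8 and 1.13 for Cdh1. The 9 lung epithelial transcription factors, 6 tested, stood at 1.18, 1.31 and 0.749, or 0.815, 0.972 and 0.849 without Klf5, and the 10 basal and neuroendocrine genes, 4 tested, at 1.13, 1.5 and 1.28. Krt5, the basal cell keratin, had 9, 21, 30 and 33 counts.

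The 14 fibroblast and smooth muscle genes stood at 0.823, 1.02 and 1.04 times Ctrl, or 0.630, 0.918 and 1.13 for the list without Gsn, and 0, 5 and 9 of them were higher than Ctrl. The 18 neutrophil genes stood at 0.946, 1.32 and 0.740, and 9, 17 and 5 of them were higher than Ctrl.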
